A study of Arabidopsis thaliana with 64 samples.

Results

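OCT1 (AT1G73220) encodes ORGANIC CATION/CARNITINE TRANSPORTER 1 of Arabidopsis thaliana. It was followed here through its probe set on an Affymetrix array, 1 of 22746 tested. The gene was chosen by its measured differences with nitrate, kinetin and abscisic acid (ABA), which ran in different directions. The values for these 3 signals are therefore a description, with no test.

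Roots were profiled 4 h after transfer to media that held any combination of 5 signals, each present or absent. The study asked how roots respond to mixed nitrogen and hormone signals. The signals were nitrate and ammonium, each at 1 mM alone or 0.5 mM when together, the auxin indole-3-acetic acid (IAA) at 500 nM, the cytokinin kinetin at 500 nM and ABA at 1 µM. Medium with none of the 5 held potassium chloride and DMSO as mock treatments. All plants had been raised in hydroponics on 0.5 mM ammonium succinate with 3 mM sucrose, for 12 to 14 days by one description in the labels and 14 to 16 days by another. All had then spent 24 h without nitrogen, so the mock roots were nitrogen-starved too. The labels name no ecotype and do not say how many plants were pooled. Each of the 32 groups had 2 arrays, 64 in all, and nothing in the labels ties these to separate cultures. Every p-value therefore rests on the spread between 2 arrays of a group, and that spread may be technical.

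Members of the OCT family are membrane proteins of the major facilitator superfamily, related to the organic cation and carnitine transporters of animals. OCT1 lies in the plasma membrane and carries carnitine when it is produced in yeast. In Arabidopsis its promoter is active in the vascular tissue and where lateral roots emerge, and plants that lack it have altered root branching. Nitrate, cytokinin, auxin and ABA all act on root branching and nitrogen status.

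OCT1 intensity ran from 3.71 to 3899 over the 64 arrays, with a median of 78.2. Within single arrays it stood above 2.15% of probe sets at the lowest and above 95.6% at the highest. The SD of its 32 group means was 2.44 on the log2 scale, larger than that of 99.9% of probe sets. OCT1 was chosen for its differences with nitrate, kinetin and ABA, so this rank follows in part from the choice. The medians of the 64 arrays ran from 103 to 303. Of the 32 groups, 19 had an OCT1 mean below the lowest of these medians and 10 had one above the highest. No detection call was used here, so levels below 103 have no sure order. In whole roots, fewer cells that express the gene and less RNA per cell cannot be told apart.

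**Figure D1:**
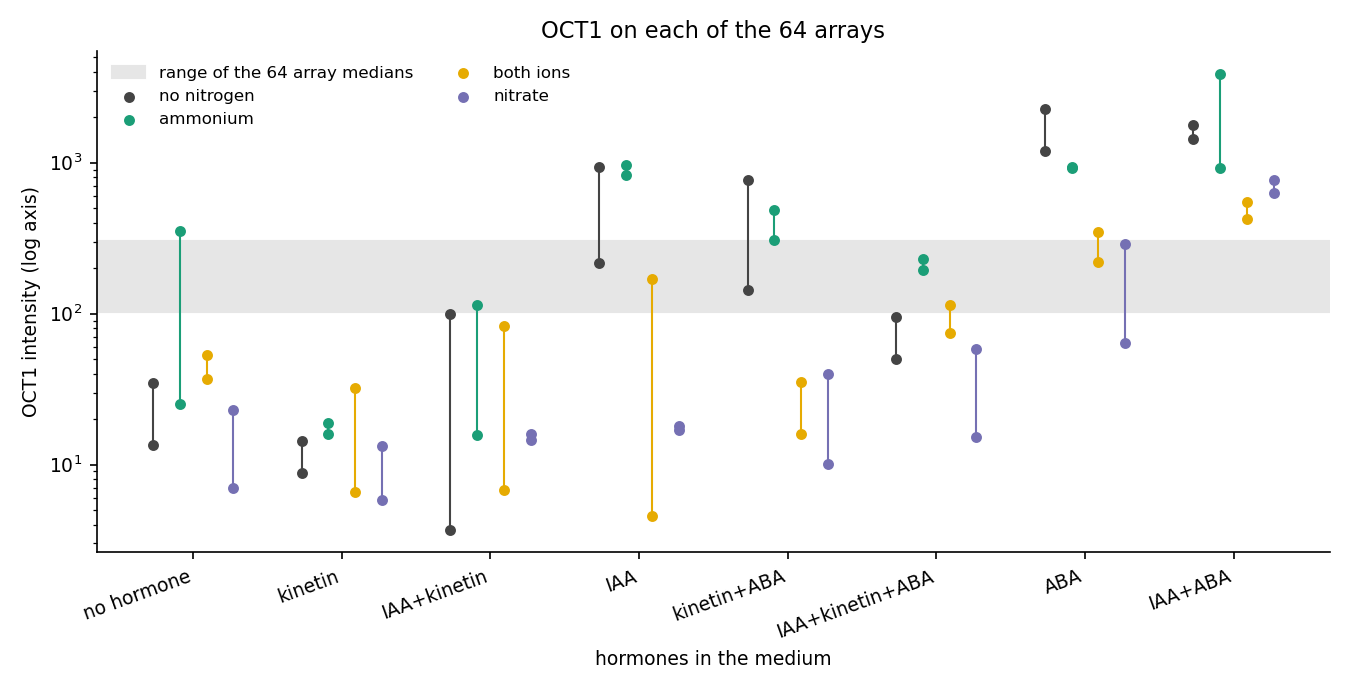
OCT1 intensity on a log axis for all 64 arrays, by hormones in the medium on the x axis and nitrogen source by colour. Each point is 1 array and a line joins the 2 arrays of a group. The grey band spans the 64 array medians, 103 to 303. Of the arrays with ABA and without kinetin, 1 with nitrate reads 63.9 and lies below the band. Of the kinetin arrays without ABA, 1 with ammonium and IAA reads 114 and lies inside it.

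Without hormones OCT1 was low. The mock arrays read 34.6 and 13.5, the nitrate arrays 7.03 and 23.0, and the arrays with both ions 53.3 and 36.8. The ammonium arrays read 25.2 and 354. These 2 arrays differed by 3.76 on the log2 scale, so the group mean of 6.59 rests on 1 of them. Nitrate and mock overlapped, and the arrays with both ions lay above both.

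With kinetin and neither IAA nor ABA, OCT1 was again low. It read 14.3 and 8.82 without nitrogen, 16.0 and 18.7 with ammonium, 13.4 and 5.84 with nitrate, and 6.54 and 32.4 with both ions. The 8 arrays spanned 5.84 to 32.4 with a median of 13.8. The groups overlapped except for ammonium, whose arrays lay above those without nitrogen and those with nitrate. Without nitrogen and with nitrate, these arrays overlapped those without kinetin, and all lay below the lowest array median.

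With IAA and neither kinetin nor ABA, OCT1 was lower where nitrate was present. Without nitrogen OCT1 read 217 and 940, and with ammonium 829 and 971. With nitrate it read 17.1 and 17.9, and with both ions 4.57 and 169. The 4 arrays without nitrate thus stood above the 4 with it. The pair at 4.57 and 169 differed by 4.93 on the log2 scale, the widest gap of any group.

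With IAA and kinetin together the high values were gone. OCT1 read 3.71 and 99.1 without nitrogen, 114 and 15.8 with ammonium, 15.9 and 14.6 with nitrate, and 6.75 and 82.2 with both ions. These arrays lay below all 4 arrays that had IAA without kinetin or nitrate. IAA without nitrate, kinetin and ABA gave 217 to 971 on 4 arrays, and the other 28 arrays without ABA spanned 3.71 to 354 with a median of 16.5. This set of 4 was chosen after its values were seen, and 1 ammonium array reached into its range.

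ABA alone gave the brightest OCT1 signals among groups with a single signal. OCT1 read 2258 and 1193 with ABA alone, 924 and 939 with ammonium, 288 and 63.9 with nitrate, and 220 and 350 with both ions. The arrays without nitrate stood above those with it. With ABA and IAA it read 1769 and 1446 without nitrogen, 930 and 3899 with ammonium, 773 and 628 with nitrate, and 421 and 546 with both ions. Here too the 4 arrays without nitrate lay above the 4 with it.

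With ABA and kinetin but no IAA, OCT1 was low where nitrate was present. With ABA and kinetin OCT1 read 143 and 763 without nitrogen, 308 and 483 with ammonium, 10.08 and 40.0 with nitrate, and 16.0 and 35.2 with both ions. The 4 arrays with nitrate lay below the 4 without it, and each pair overlapped the mock arrays. With ABA, kinetin and IAA it read 50.3 and 95.6 without nitrogen, 231 and 196 with ammonium, 57.9 and 15.1 with nitrate, and 114 and 74.1 with both ions. These groups overlapped in part, with ammonium highest.

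In order of group means the lowest was nitrate with kinetin, at 3.31 ± 0.76 on the log2 scale (SD, n = 2), followed by kinetin alone at 3.62 ± 0.45 and nitrate alone at 3.80 ± 1.12. Mock was rank 10, at 4.50 ± 0.92. The highest were ammonium with IAA and ABA at 10.90 ± 1.46, ABA alone at 10.68 ± 0.65 and IAA with ABA at 10.64 ± 0.21. The arrays of 27 of the 31 neighbouring pairs in this order overlapped, so the order of these neighbours is not sure. Neighbours in a sorted order lie close by construction, so with 2 arrays each neither overlap nor a gap tests a difference. The 4 gaps were those above rank 5 (nitrate with IAA and kinetin), above rank 26 (both ions with IAA and ABA), above rank 27 (nitrate with IAA and ABA) and above rank 29 (ammonium with ABA). The first of these lies between readings of 15.9 and 16.0, in the dim range that has no sure order. The SD between arrays of a group was 1.36 for OCT1, larger than that of 88.2% of probe sets. In the 10 groups above the highest array median the 2 arrays differed by a median of 0.51 on the log2 scale, and in the 19 groups below the lowest by 1.30.

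Comparing the 32 arrays with a signal against the 32 without it, over 16 backgrounds made by the other signals, OCT1 was lower with nitrate by a log2 difference of -1.99 ± 0.33 (SE), lower with kinetin by -2.42 ± 0.33 and higher with ABA by 2.82 ± 0.33. These 3 values chose the gene, and 0.884%, 2.07% and 27.3% of probe sets passed in limma for the same comparisons. For all probe sets together the median difference was -0.19 with ABA, 0.03 with nitrate and -0.02 with kinetin. In 8 of the 16 combinations nitrate was added at 0.5 mM and ammonium was lowered from 1 to 0.5 mM, which the averaged nitrate value carries. Measures of RNA quality also differed with the signals. The log2 ratio of 3' to 5' probe sets was lower with nitrate by -0.47 for the newer actin control and -0.48 for GAPDH, and lower with ABA by -0.45 and -0.29. For the older actin control it was lower with nitrate by -0.20, and higher with kinetin by 0.23 and with IAA by 0.37. The newer actin control and GAPDH went the other way, at -0.11 and -0.17 with IAA and -0.007 and -0.05 with kinetin. With the newer actin ratio as a covariate the OCT1 differences were -1.89 with nitrate, -2.42 with kinetin and 2.92 with ABA. With the older one they were -1.89, -2.54 and 2.82.

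Nitrate gave a lower OCT1 mean in 16 of 16 backgrounds, and in 9 of them the arrays did not overlap. With 2 arrays a side, such gaps also arise often by chance, here and in the counts for the other signals. Their share over all probe sets is not given here. The difference was -4.87 beside ammonium and IAA, -4.62 beside IAA, -3.96 beside kinetin and ABA, and -3.97 when ammonium was there as well. It was weakest where OCT1 was already dim. Beside kinetin alone it was -0.31, beside ammonium and kinetin -0.20, and against mock -0.71, and in all of these the arrays overlapped. Without detection calls, a decrease at such levels cannot be told from background.

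Kinetin gave a lower mean in 16 of 16 backgrounds, and in 13 of them the arrays did not overlap. Of the 13, those beside nitrate and IAA and beside both ions lay wholly below 103, where levels have no sure order. The kinetin difference reached -4.51 beside IAA and ABA, and -4.50 when nitrate was there as well. Beside IAA it was -4.38, and beside ammonium and IAA it was -4.36. It was -0.19 beside nitrate and IAA and -0.49 beside nitrate, where OCT1 was near its lowest levels.

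ABA gave a higher mean in 16 of 16 backgrounds, and in 10 of them the arrays did not overlap. The difference was 6.18 against mock, 5.24 beside nitrate and IAA, and 4.76 beside kinetin. It was 1.08 beside ammonium and IAA, where OCT1 was already bright. Beside nitrate and kinetin together, averaged over 4 combinations, it was 1.14 ± 0.65, against 3.09 ± 0.65 without either, 3.29 ± 0.65 beside kinetin only and 3.78 ± 0.65 beside nitrate only. This split is a description with no test. The arrays with nitrate and kinetin read 5.84 to 82.2 without ABA and 10.08 to 114 with it. Most of these lay below 103, where levels have no sure order. Among markers of other tissue, 2 of 9 green tissue genes were named on the array. Their summed intensity ran from 144 to 1100 without ABA (median 544) and from 195 to 1185 with it (median 560). Of these, LHCB4.1, a chlorophyll-binding protein, rose with ABA by 0.84 ± 0.25 (limma adjusted p = 0.00906). The other, RCA, did not pass, with a difference of -0.05 ± 0.17 (adjusted p = 0.859). The part of either in the OCT1 value was not tested. The 2 of 11 root markers named, the root hair expansins EXPA7 and EXPA18, read 213 or more and 128 or more on all arrays. Both fell with ABA, with differences of -0.51 ± 0.11 and -0.47 ± 0.13 (adjusted p = 0.000724 and 0.00735). Their sum ran from 846 to 2407 without ABA (median 1595) and from 340 to 2296 with it (median 1102), and this was not tested as a part of the OCT1 value.

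**Figure D2:**
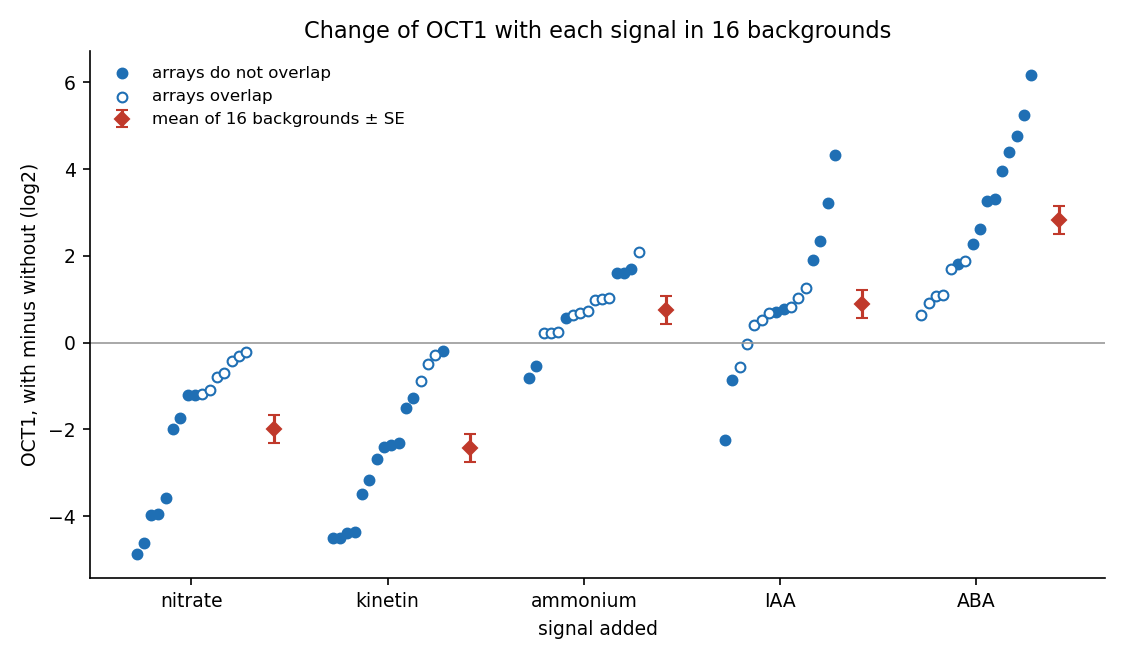
Log2 difference of OCT1 group means with minus without each signal, 1 point for each of 16 backgrounds, filled where the 2 arrays on each side do not overlap. With 2 arrays a side, filled points also arise often by chance. Diamonds are the mean over the 16 backgrounds with its SE. All nitrate and kinetin points lie below 0 and all ABA points above it, and the points for ammonium and IAA lie on both sides.

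The rule did not use ammonium or IAA, nor how pairs of signals combine. On these, 15 comparisons were tested with limma, two-sided, each with Benjamini-Hochberg adjustment over all 22746 probe sets. OCT1 passed the threshold of 0.05 in none of them. The number of arrays limits this precision. A p that misses the threshold does not show that OCT1 did not respond, and the 95% intervals are given for that reason.

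With IAA the averaged difference was 0.90 ± 0.33, with an interval from 0.23 to 1.56 (adjusted p = 0.178, unadjusted p = 0.00954). IAA gave a higher mean in 12 of 16 backgrounds, in 6 of them with arrays that did not overlap, and a lower one in 4, of which 2 did not overlap. Of the 6, the arrays beside nitrate and kinetin lay wholly below 103, where levels have no sure order. For IAA 2.65% of probe sets passed. The single backgrounds spread from -2.24 beside kinetin and ABA to 4.32 against mock. Leaving out any 1 of the 64 arrays gave adjusted p-values from 0.05 to 0.27. With a pseudocount of 64 in place of 1, which damps the dim values, the difference was 0.55 ± 0.16 (adjusted p = 0.0477). With the older actin ratio as a covariate it was 0.70 ± 0.40 (adjusted p = 0.534), and with the newer one 0.92 ± 0.33 (adjusted p = 0.163). GH3.3, an auxin-conjugating enzyme that responds quickly to auxin, rose by 6.53 ± 0.24 with IAA (adjusted p = 1.76e-21). The root marker EXPA18 fell with IAA, with a difference of -0.68 ± 0.13 (adjusted p = 0.00126). The difference of EXPA7 was -0.24 ± 0.11 (adjusted p = 0.376). Their sum had a median of 1589 without IAA and 1089 with it, and its part in the OCT1 value was not tested.

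The 2 widest IAA differences arose without kinetin, nitrate or ABA. There IAA gave 4.32 against mock and 3.22 beside ammonium, and the arrays did not overlap in either. Beside nitrate it gave 0.41, and beside both ions -0.56, with overlapping arrays. Averaged over 4 combinations, IAA gave 2.13 ± 0.65 without nitrate and kinetin, and -0.25 ± 0.65 beside kinetin without nitrate. Beside nitrate it gave 0.75 ± 0.65 without kinetin and 0.96 ± 0.65 with it. Without nitrate and ABA it gave 2.41 ± 0.65, and beside ABA without nitrate -0.52 ± 0.65. Beside nitrate the order was the other way, at 0.31 ± 0.65 without ABA and 1.39 ± 0.65 with it. There IAA gave 2.35 beside nitrate and ABA and 1.91 beside both ions, kinetin and ABA, with arrays that did not overlap. These splits are a description with no test.

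With ammonium the averaged difference was 0.75 ± 0.33, with an interval from 0.08 to 1.41 (adjusted p = 0.456, unadjusted p = 0.0282). The mean was higher in 14 of 16 backgrounds, in 4 of them with arrays that did not overlap, and lower in 2, where the arrays did not overlap either. Of the 4, those beside kinetin and beside nitrate lay wholly below 103, where levels have no sure order. For ammonium 0.506% of probe sets passed. Against no nitrogen, 1 mM ammonium over the 8 hormone combinations gave 0.74 ± 0.46, with an interval from -0.20 to 1.68 (adjusted p = 0.539), and 0.462% of probe sets passed. Both ions at 0.5 mM against nitrate at 1 mM gave 0.76 ± 0.46, with an interval from -0.18 to 1.70 (adjusted p = 0.998), and 0.0484% passed. In that comparison ammonium was added and nitrate lowered at once. Without 1 array of both ions with IAA (169) it was 0.45, and without 1 array of IAA with kinetin (3.71) the value against no nitrogen was 0.46. Without the other array of each of these groups the values were 1.07 and 1.02. The largest single difference with ammonium was 2.09 against mock, which rests on the array that read 354. Of the 2 negative ones, ammonium gave -0.82 beside ABA and -0.54 beside nitrate, IAA and ABA.

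The interaction of a pair of signals is the effect of one with the other present, minus its effect without, averaged over 8 combinations. The largest was that of kinetin and ABA, at -1.22 ± 0.65 (interval -2.55 to 0.10, adjusted p = 0.999). Kinetin gave -1.81 ± 0.46 without ABA and -3.04 ± 0.46 with it. That of IAA and kinetin was -1.09 ± 0.65 (interval -2.41 to 0.24, adjusted p = 0.735), with an IAA difference of 1.44 ± 0.46 without kinetin and 0.35 ± 0.46 with it. That of nitrate and kinetin was 0.97 ± 0.65 (interval -0.36 to 2.30, adjusted p = 0.483). The nitrate difference was -2.47 ± 0.46 without kinetin and -1.50 ± 0.46 with it. For kinetin with ABA, and for IAA with kinetin, 0.00879% of probe sets passed, and for nitrate with kinetin 0%.

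The interaction of IAA and ABA was -0.92 ± 0.65 (interval -2.25 to 0.40, adjusted p = 0.892), and 0.0396% of probe sets passed. ABA gave 3.29 ± 0.46 without IAA and 2.36 ± 0.46 with it. Nitrate and ABA stood at -0.73 ± 0.65 and ammonium and ABA at -0.61 ± 0.65, and without the both-ions IAA array that read 169 at -0.42 and -0.30. Without the other array of that group they stood at -1.04 and -0.92. Ammonium with kinetin, IAA or nitrate, and nitrate with IAA, all lay between -0.09 and 0.14. For nitrate with ammonium 0.0132% of probe sets passed, and for the other 5 of these interactions 0%. A joint test of the 16 interactions of 3 or more signals gave F = 1.44 (adjusted p = 1, unadjusted p = 0.178), and 0% of probe sets passed. The 7 tests in which limma called 0 probe sets had between 662 and 3141 at an unadjusted p under 0.05, or 2.91% to 13.8%. Only nitrate with kinetin, at 13.8%, lay above the share that this threshold gives by chance alone.

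**Figure D3:**
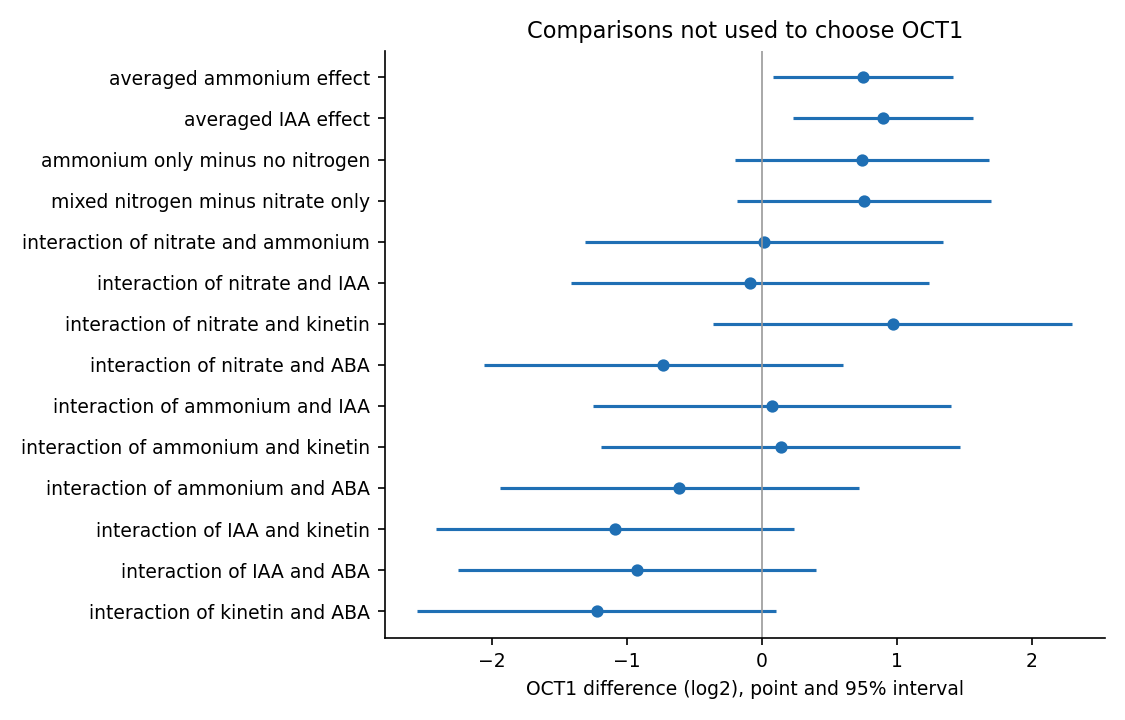
Estimates and 95% intervals of the OCT1 log2 difference in the 14 single comparisons that the choice of the gene did not use. The intervals for the averaged ammonium and IAA differences lie above 0 before adjustment over probe sets, and those of all 10 pairs of signals span 0.

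On the log2 scale the 32 group means were set against the sum of the averaged differences of the 5 signals, and 13 of them lay more than 1 from it. ABA took 34.7% of the sum of squares between groups, kinetin 25.5%, nitrate 17.2%, IAA 3.5% and ammonium 2.44%, or 83.4% together. The 10 pairs took 5.88% and the higher interactions 10.7%. The spread between duplicate arrays would give 13.1% in these 26 remaining terms. The group farthest from the sum was mock, measured at 4.50 against a sum of 6.50. Ammonium with IAA was above its sum by 1.67, and IAA with kinetin and ABA was below it by -1.66. The SE of a group mean from the spread of duplicates was 0.96.

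**Figure D4:**
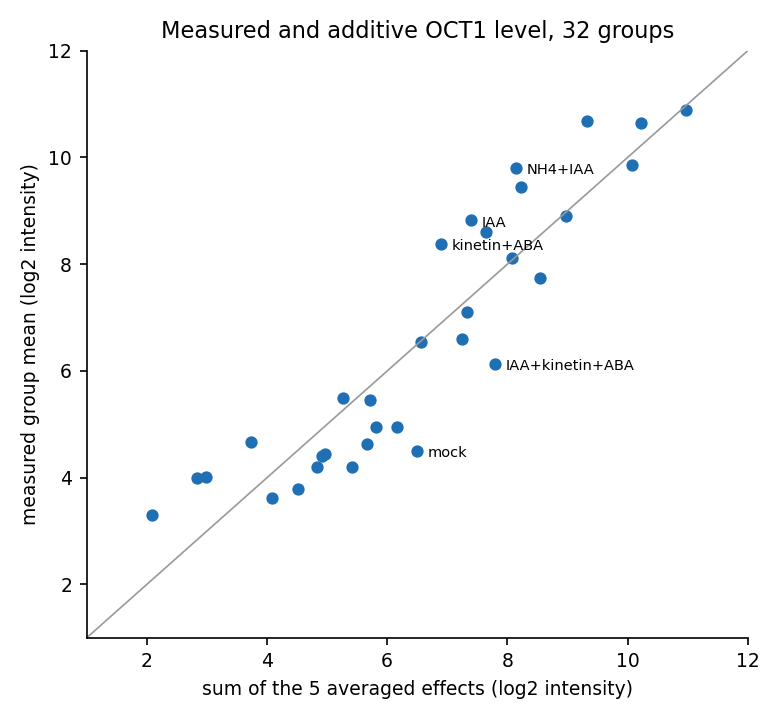
Measured OCT1 mean of each of the 32 groups against the sum of the 5 averaged differences, both as log2 intensity. The line marks equality, and the 5 groups farthest from it are named, from mock at 4.50 against 6.50 on.

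Of the 6 genes of the OCT family, OCT4 and OCT5 also had a named probe set. Both are known as proteins of the vacuolar membrane. OCT5 ran from 205 to 1559 over the 64 arrays. It rose with kinetin by 0.46 ± 0.11 (limma adjusted p = 0.0116) and fell with ABA, with a difference of -0.82 ± 0.11 (adjusted p = 1.92e-07), where OCT1 stood at -2.42 and 2.82. Its difference with nitrate was -0.17 ± 0.11 (adjusted p = 0.738), and with ammonium 0.42 ± 0.11 (adjusted p = 0.0714). OCT4 ran from 15.6 to 513 and passed for none of the 5 signals, with differences from -0.19 to 0.24 (adjusted p from 0.483 to 0.978). Over the 32 group means the correlation with OCT1 was 0.13 for OCT4 and -0.48 for OCT5, over the same arrays. The difference between the responses of these genes and OCT1 was not tested.

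Polyamines are among the organic cations of plant cells. Of 16 genes of polyamine synthesis and oxidation, the 3 named on the array encode S-adenosylmethionine decarboxylases, which supply aminopropyl groups for spermidine and spermine. None of the 3 passed for any of the 5 signals, where 0.506% to 2.65% of all probe sets passed for 4 signals and 27.3% for ABA, so a count of 0 in 3 is near the background. The largest differences were those of SAMDC2, at -0.61 ± 0.26 with kinetin (adjusted p = 0.393) and 0.50 ± 0.26 with ABA (adjusted p = 0.16). The medians of the 3 genes lay between -0.00405 and 0.12 over the signals, and those of all probe sets between -0.19 and 0.06. None of the 5 polyamine uptake transporters of the list, nor the mitochondrial carrier BOU, had a named probe set. Of 13 genes of nitrate transport and reduction 1 was named, NRT2.5, a high-affinity nitrate transporter of nitrogen-starved roots. Like OCT1 it was lower with kinetin on average, where it fell by 0.56 on the log2 scale (adjusted p = 0.0435). Its interaction of nitrate and kinetin was 1.19 ± 0.31 and did not pass (adjusted p = 0.282). Beside nitrate its means moved both ways with kinetin, from 8.12 to 9.06 without other signals and from 10.00 to 9.01 with IAA. The averaged OCT1 difference with kinetin beside nitrate was -1.94 ± 0.46. Over the group means the correlation of NRT2.5 with OCT1 was -0.14. Where OCT1 was higher with ABA, NRT2.5 fell, with a difference of -1.13 ± 0.15 (adjusted p = 3.03e-07), and its nitrate difference was -0.31 ± 0.15 (adjusted p = 0.605).

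Among 9639 named genes whose group means had an SD of 0.5 or more, EXLB1 followed OCT1 most closely, with a Pearson correlation of 0.80 over the 32 group means. EXLB1 encodes an expansin-like protein. Next came AT5G17850 at 0.73, AT4G14020 at 0.73, AT3G03170 at 0.72, the stress-induced aldehyde dehydrogenase ALDH7B4 at 0.71, AT2G17760 at 0.71, AT5G19875 at 0.71 and the transcription factor gene bZIP58 at 0.70. Of all 16260 probe sets compared, including those without a name, EXLB1 ranked 5. These points share arrays, and the ABA groups weigh in all of them. By Spearman correlation, or over the 64 single arrays, 5 of these 8 genes were among the 8 most alike, and 6 were after quantile normalization.

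Since the genes were picked for following OCT1, their values are a description. With ABA the differences of the 8 ran from 1.14 to 3.18 on the log2 scale. With kinetin they ran from -0.81 ± 0.13 for EXLB1 to -0.16 ± 0.15 for AT2G17760 and -0.03 ± 0.10 for ALDH7B4, the last within its SE of 0. With nitrate their differences ran from -0.48 to 0.18, where OCT1 stood at -1.99. In roots with IAA alone OCT1 stood 2.29 above its own mean, and with ammonium and IAA 3.28 above. The 8 genes lay between -0.46 and 0.50, and between -0.59 and 0.10, of their own means in the same 2 groups. These distances are not scaled to the wider spread of OCT1. In the ABA group OCT1 stood 4.15 above its mean and the 8 genes 0.65 to 1.66 above theirs. From mock to IAA alone all 8 rose too, from 10.04 to 10.15 for AT2G17760 and from 8.97 to 10.97 for AT3G03170. Their averaged IAA differences ran from -0.15 for bZIP58 to 0.97 for AT5G17850, where OCT1 stood at 0.90. The most opposed genes were AT3G24510 at -0.81, AT1G09390 at -0.80, AT1G66800 at -0.79 and AT5G57150 at -0.78. All 4 were higher with kinetin, by 0.77 to 2.58, and lower with ABA, by -2.70 to -0.81.

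**Figure D5:**
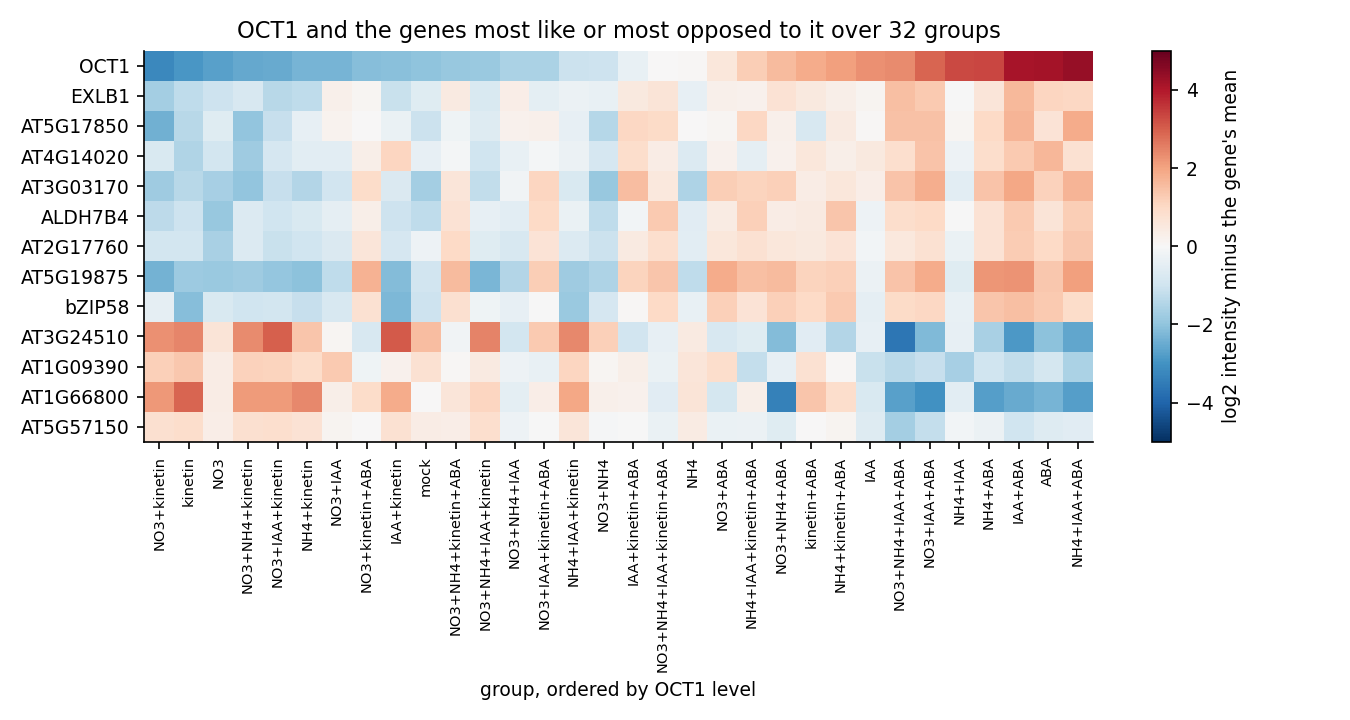
Mean log2 intensity in each of the 32 groups minus the gene's own mean, for OCT1, the 8 named genes most like it and the 4 most opposed, with groups ordered by OCT1 level. OCT1 is 2.29 above its mean in the IAA group, where the 8 genes lie between -0.46 and 0.50. In the ABA group it is 4.15 above, and the 8 genes are 0.65 to 1.66 above theirs. The values are not scaled to each gene's spread.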

How the data were processed

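Per the labels' protocols, root RNA was isolated by Trizol and biotin-labelled for Affymetrix arrays, 1 array per sample. The authors deposited linear intensities. In their values the mean of each array, without the lowest and highest 2% of probe sets, is 500. The software is not given in the sources used here. Array medians ranged from 103 to 303. Duplicate arrays correlated at 0.724 to 0.897 over probe sets, and none were identical.

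Control probe sets (64) were left out. log2(intensity + 1) of 22746 probe sets was fitted with limma 3.58.1 in R 4.3.3, 1 mean for each of 32 groups, and checked on simulated data. Fold changes on the log2(value + pseudocount) scale understate those of dim genes. No filter was applied. Of 13513 probe sets with 1 gene, 13436 matched RefSeq TAIR10.1, used for names only. Named genes were OCT1, list members and, by correlation over 32 group means, the 8 most like and the 4 most opposed. OCT1, the lists and the tests were chosen with earlier results of these data known. Alternatives tried were pseudocounts of 16 and 64, other scalings, covariates, weights and blocks, a filter on dim probe sets, a model of pairs, and leaving out arrays.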

Additional observations from a re-analysis of the deposited data

How the results depend on the processing

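The nitrate, kinetin and ABA differences of OCT1 kept their direction under 11 alternatives, from -2.33 to -1.29, from -2.54 to -1.58 and from 1.60 to 3.15, with the smallest sizes at a pseudocount of 64, and when any 1 of 64 arrays was left out. The IAA difference passed at a pseudocount of 64 only (0.55, adjusted p = 0.0477), which damps dim values by construction. The second actin control was added as a covariate after seeing the data. The filter on dim probe sets removed OCT1 and gives no value for it. Interactions near 0 changed sign. Nitrate with ammonium stood at -0.049 at a pseudocount of 64. Ammonium with kinetin stood at -0.014 at that pseudocount, -0.11 with quantile-normalized arrays and -0.011 when the array median was a covariate. Ammonium with IAA stood at -0.0049 after quantile normalization, -0.078 with a common array median, -0.21 with the median as a covariate and -0.47 without the 6 arrays of extreme median. The cause was not tested. Without 1 array, nitrate with ammonium ran from -0.29 to 0.33, nitrate with IAA from -0.40 to 0.22, ammonium with IAA from -0.23 to 0.38 and ammonium with kinetin from -0.17 to 0.45, with both ends of each set by the 2 arrays of both ions with IAA. Other values kept their sign but moved by over 1.5 times. At a pseudocount of 64, ammonium stood at 0.34, ammonium against no nitrogen at 0.37 and both ions against nitrate at 0.32. With the array median as a covariate, nitrate with kinetin stood at 0.37. Without the 6 arrays of extreme median, IAA with kinetin stood at -0.40, nitrate with ABA at -0.24 and ammonium with ABA at -0.13. In the same setting nitrate with IAA stood at -0.64 and kinetin with ABA at -1.85. Without 1 both-ions IAA array (169), IAA with ABA stood at -0.62. No other OCT1 result changed its side of the threshold.

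Counts of probe sets passed moved more. They ran from 88 to 193 for ammonium (115 in the reported fit), 410 to 1123 for IAA (603), 49 to 199 for ammonium against no nitrogen (105), 10 to 40 for both ions against nitrate (11), 0 to 5 for nitrate with ammonium (3), 0 to 2 for nitrate with ABA (0), 0 to 1 for ammonium with ABA (0), 2 to 5 for IAA with kinetin (2), 6 to 16 for IAA with ABA (9) and 1 to 17 for kinetin with ABA (2). The labels do not say that a replicate number marks a shared batch, and deviations of same-numbered arrays correlated from -0.26 to 0.42 between groups (median 0.049), so the numbers were not taken as pairs. Yet 24 of 32 groups deviated on average with their own number and 8 with the other, a hint from the data of a shared replicate effect. With a replicate block OCT1 changed no call (IAA adjusted p = 0.135), and the counts were 173 for ammonium, 721 for IAA, 198 for ammonium against no nitrogen and 27 for both ions against nitrate.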

Other observations

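By order in RefSeq TAIR10.1, the protein-coding genes beside OCT1 are AT1G73210 and AT1G73230, and the next ones out are AT1G73200 and AT1G73240. Of these, 3 had a named probe set, and none passed in limma for any of the 5 signals, where 0.506% to 2.65% of all probe sets passed for 4 signals and 27.3% for ABA. A count of 0 in 3 is near that background. With ABA the differences were -0.06 ± 0.23 for AT1G73200, -0.27 ± 0.19 for AT1G73230 and -0.43 ± 0.35 for AT1G73240 (adjusted p = 0.889, 0.308 and 0.385). With kinetin they were 0.07 ± 0.23, -0.12 ± 0.19 and -0.44 ± 0.35 (adjusted p = 0.998, 0.973 and 0.839), and with nitrate 0.40 ± 0.23, 0.01 ± 0.19 and 0.40 ± 0.35 (adjusted p = 0.683, 0.995 and 0.85).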
